A study of Mus musculus with 5 samples.

Results

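The cytosolic ribosomal protein genes are described here in sorted cells of the mouse embryonic aorta-gonad-mesonephros (AGM, where the first blood stem cells arise) that were treated with interferon-alpha (IFNa). Members were the rows of the deposited array table that the platform annotation pairs with a single gene symbol of the Rpl or Rps series, together with Rpsa and the stalk proteins, and without the ribosomal S6 kinases. The rule used no measured difference and found 44 genes of 17756. By symbol, 23 belong to the large subunit (Rpl) and 21 to the small subunit (Rps). Among the latter, Rps4l is listed in the RefSeq table as a transcribed pseudogene. Another 30 rows name a ribosomal protein together with other genes or pseudogenes, so they are not members and are given apart. Rpl5, Rplp1, Rpl10, Rpl39 and Rpl3 are on such shared rows.

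The 5 arrays were hybridised with RNA of C57Bl/6 embryos at E11.5. The labels call the cells hematopoietic stem cells and give their sort as VE+CD45+, that is, positive for VE-cadherin and for CD45. All cells were held in medium with fetal serum, the IFNa group (replicates 1, 2 and 3) with 0.5 ng/ml IFNa for 4 hours and the vehicle group (replicates 2 and 3) with vehicle for the same 4 hours. The labels name no transgene or mutation, call the replicates biological and do not say how many embryos went into each. The sort genes were measured, on the log2 signal scale of the deposited table. Ptprc (CD45) read 5.85, 7.03 and 5.35 with IFNa and 7.23 and 8.95 with vehicle, lower on every IFNa array (adjusted p = 0.441, limma). Cdh5 (VE-cadherin) read 6.23 to 9.20. The macrophage receptor gene Csf1r read 14.26 to 14.69 over the 5 arrays, and the stem cell factor receptor gene Kit read 4.15 to 7.56. The part of cell composition in the results was not tested.

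Cytosolic ribosomes translate nuclear-encoded mRNA. The small subunit holds the decoding centre and the large subunit the peptidyl transferase centre and the exit tunnel, and nearly every ribosomal protein is needed in equal amount, so their genes are usually transcribed at a high and matched rate. Their mRNAs begin with a tract of pyrimidines, the 5′ terminal oligopyrimidine (TOP) tract, through which the kinase mTORC1 controls their translation. Blood cell formation is sensitive to a shortage of ribosomal proteins, as the inherited red cell aplasia Diamond-Blackfan anemia shows, and interferons are known to restrain translation through the kinase encoded by Eif2ak2 and the IFIT proteins.

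The surroundings of the annotated start sites were searched for pyrimidine runs, not for the TOP tract itself. RefSeq windows on GRCm38.p6 were found for 38 of the 44 genes, taking the first listed start of each. A run of at least 8 pyrimidines lay between 20 bases before and 30 bases after the annotated start, on the transcript strand, in 19 of the 38, or 50%, against 18.8% of 27025 genes in the same table. The other 19 had no run of that length there. A run did not have to begin at the start site, and counted runs began from position -20 (Rps25) to position 14 (Rpl11). The count is therefore not one of TOP tracts. The longest such run had a median of 8 bases in the members and 5 in all genes. The windows printed next are 4 of rows with high signal (Rpl38, Rplp2, Rpl7a and Rps10), then 4 of rows with the largest differences or the lowest signal (Rpl14, Rpl39l, Rpl35 and Rps18), then Rps6, and last Rpl41 and Rps16 as dim rows with short runs. Each holds 15 bases on either side of the annotated start, 5′ to 3′ on the gene's strand, and capitals mark the longest pyrimidine run.
Rpl38 (chr11:114668565-114668594, plus strand): agcggaagcctcgTTCTTTCCCCgttctct
Rplp2 (chr7:141447636-141447665, plus strand): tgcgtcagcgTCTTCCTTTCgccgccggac
Rpl7a (chr2:26910792-26910821, plus strand): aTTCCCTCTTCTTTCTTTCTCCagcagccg
Rps10 (chr17:27635230-27635259, minus strand): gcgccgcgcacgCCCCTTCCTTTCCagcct
Rpl14 (chr9:120571502-120571531, plus strand): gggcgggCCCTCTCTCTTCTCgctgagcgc
Rpl39l (chr16:10170213-10170242, plus strand): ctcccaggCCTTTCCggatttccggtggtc
Rpl35 (chr2:39005117-39005146, minus strand): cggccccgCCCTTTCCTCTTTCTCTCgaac
Rps18 (chr17:33955651-33955680, minus strand): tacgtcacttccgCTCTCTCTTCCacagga
Rps6 (chr4:86857353-86857382, minus strand): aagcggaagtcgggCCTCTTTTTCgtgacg
Rpl41 (chr10:128549154-128549183, minus strand): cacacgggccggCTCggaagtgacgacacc
Rps16 (chr7:28350674-28350703, plus strand): cccgCTTCTgtcgtgacgtagcactcaatg
Of these 11 windows, chosen to show both kinds and not as a sample of the members, 8 hold a run of at least 8, while the longest run was 7 in Rpl39l, 5 in Rps16 and 3 in Rpl41. A run of at least 8 was found for 10 of the 19 members with a window whose rows average above 11 on the log2 signal scale and for 9 of the 19 with dimmer rows.

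Other motifs were counted on both strands in the whole window of 250 bases before and 50 bases after the start, each on its own, so that matches may overlap. The ETS family site CCGGAAG was in 17 of the 38 members (44.7%) and in 9.12% of all 27025 windows. The core of the interferon-stimulated response element, searched as GAAA, any 2 bases and GAAA again, was in 4 members (Rpl27a, Rpl38, Rpl4 and Rps19), or 10.5%, and in 3.49% of all windows. The STAT-type palindrome TTCNNNGAA was in 3 members (7.89%) and in 8.47% of all windows. The motif AAGATGGC, bound by YY1, was in 3 members (7.89%) and in 2.88% of all windows, and the palindromic NRF1 consensus in 1 member (2.63%, Rpl37a) and in 0.977% of all windows. A match is a description, not a binding site. The 4 genes with the response element match differed between IFNa and vehicle by -0.02 (Rpl27a), -0.01 (Rpl38), 0.09 (Rpl4) and -0.23 (Rps19) on the log2 scale.

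The rows of the members fell into a bright part and a dim part. The mean signal over the 5 arrays was above 11 for 23 members, all at or above the 96.5th percentile of all genes, and no member lay between 9.56 and 11.15. The other 21 spread from 2.50 to 9.56. The rows of Rpl35, Rps18 and Rps16 averaged under 3.35, the 20th percentile of all values. Signals of different probe sets depend on their probes and do not rank the transcripts, and no detection calls were used. A dim row of a gene that every cell needs is given here only as the reading of that row. Bright and dim rows differed in probe set type. All 14 rows with the suffix _a_at averaged above 11, as did 5 of the 8 with _x_at, 4 of the 21 with plain _at and 0 of the 1 with _s_at. Rows with _x_at hold probes that can match other sequences, and ribosomal protein genes have many processed pseudogenes, so a row may include signal from near-identical copies.

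**Figure D1:**
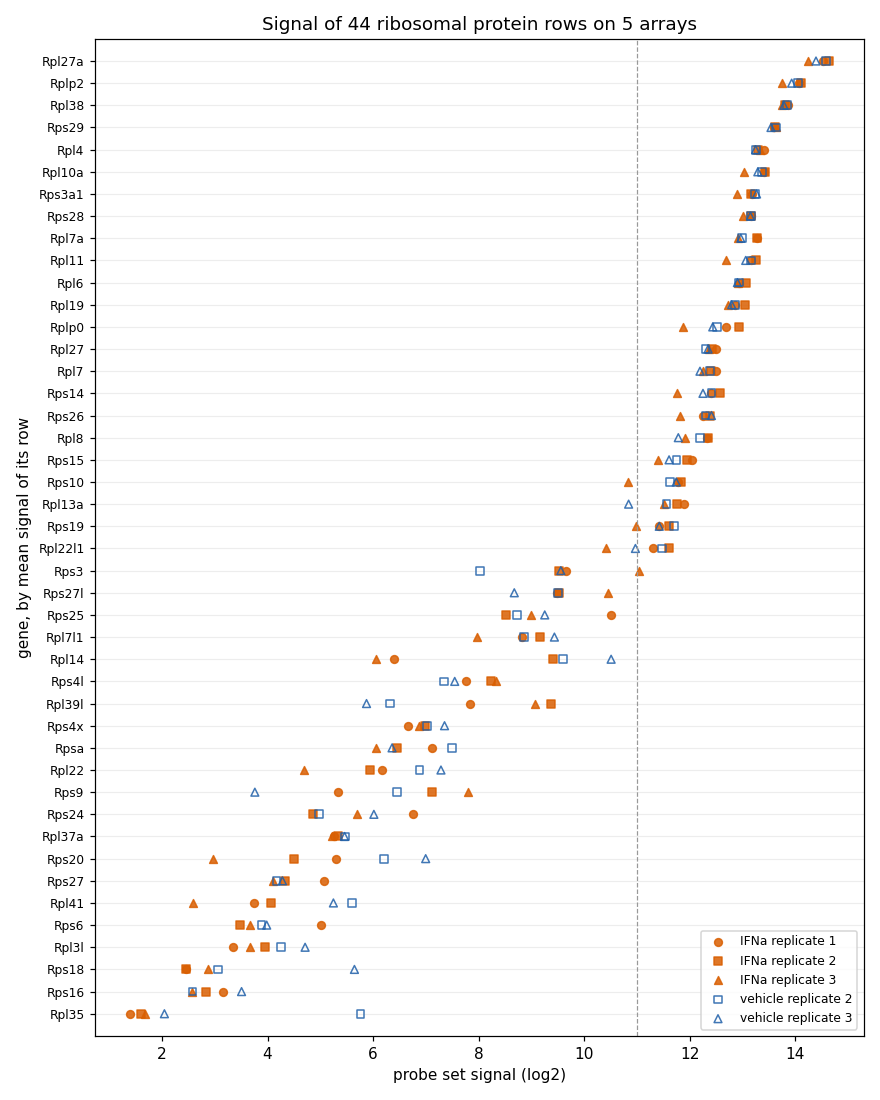
Signal of the 44 members on the log2 scale (horizontal axis) on each of the 5 arrays, with genes ordered by the mean signal of their row (vertical axis). Filled orange symbols are IFNa arrays, open blue symbols are vehicle arrays, symbol shape is the replicate number, and the dashed line at 11 separates the 23 bright rows, whose arrays lie close together, from the 21 others.

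No ribosomal protein gene differed detectably between IFNa and vehicle. In the limma fit over 17756 genes 0 of 44 members passed an adjusted p under 0.05 in either direction, and 0.135% of all genes did (0.0169% higher, 0.118% lower). A nominal p below 0.05, that is, before adjustment, was reached by 8 members (18.2%), against 10.0% of all genes, with 1 higher (4.52% of all genes) and 7 lower (15.9% of members, 5.51% of all genes). The IFNa arrays did not overlap the vehicle arrays for 14 members (31.8%), against 25.6% of all genes. IFNa was the lower group for 10 of these (22.7% of members, 14.1% of all genes). The median difference was -0.02 on the log2 scale in the members and -0.04 in all genes, with 20 members above 0 and 24 below. It was -0.01 in the large subunit and -0.04 in the small subunit. The sign of the member median was not stable to scaling, at 0.07 with arrays centred on their medians and -0.18 with repeated quantile normalization. In bulk samples of this kind, fewer cells of a type and less RNA per cell cannot be told apart.

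**Figure D2:**
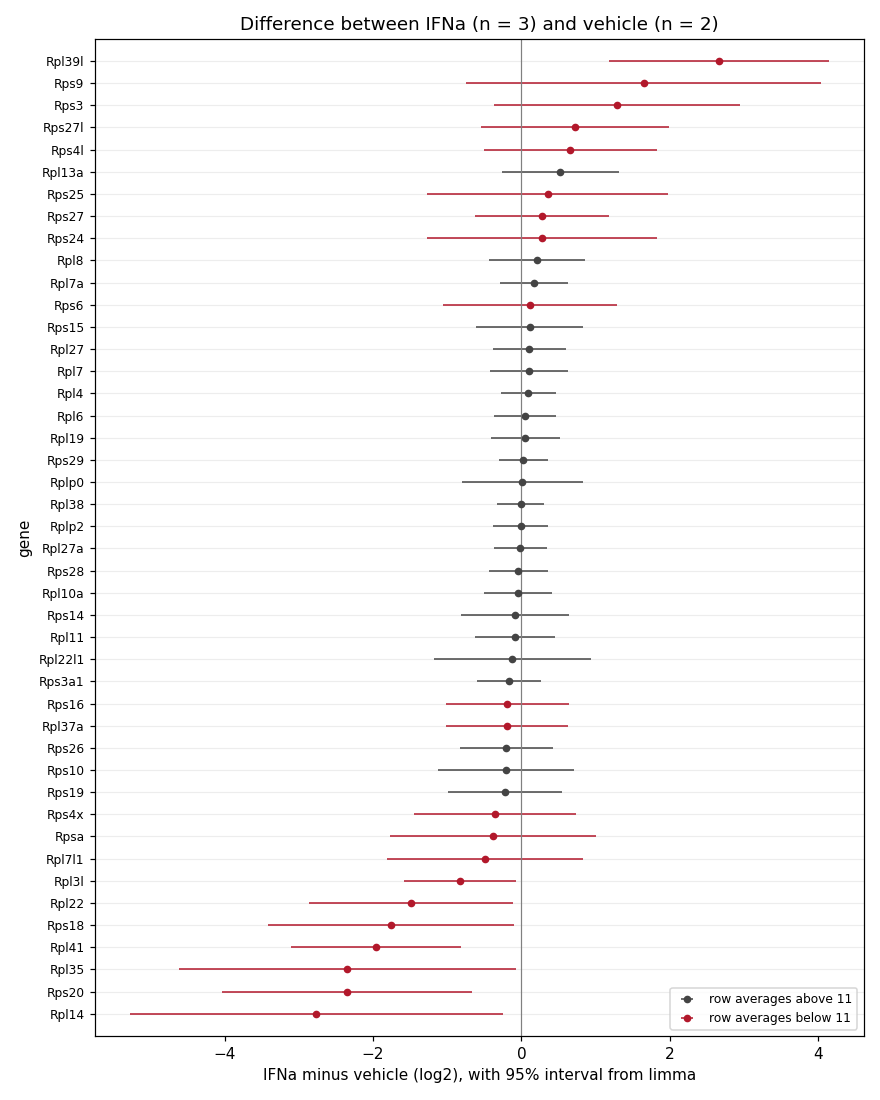
Difference IFNa minus vehicle on the log2 scale (horizontal axis) for the 44 members, ordered by it (vertical axis), with 95% intervals from limma. Dark points are rows that average above 11 and red points rows below 11, and the differences of the 23 bright rows all lie between -0.23 and 0.52.

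Among the 23 bright rows the difference ranged from -0.23 (Rps19) to 0.52 (Rpl13a), with a median of -0.01. None of them, 0 of 23, had a nominal p below 0.05. Of the 691 genes that average above 11, 84 did (75 higher, 9 lower), and their median difference was 0.10. For 20 of the 23 the 95% interval lay wholly within 1 on the log2 scale in both directions, so a change of 2-fold or more lay outside it. The same held for 296 of the 691 genes above 11. It held for 0 of the 21 dim rows, whose intervals all reached such a change in at least 1 direction. In the signal range of the dim rows it held for 3340 of 14643 genes. All 8 members with a nominal p below 0.05 were dim rows, 8 of 21, against 1399 of those 14643 genes.

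The stalk recruits the GTPase translation factors to the ribosome, and neither stalk protein among the members differed detectably between the groups. Rplp2 read 14.07, 14.11 and 13.76 on IFNa replicates 1, 2 and 3 and 14.05 and 13.93 on vehicle replicates 2 and 3. The groups overlapped, and the difference was -0.01 ± 0.16 (SE, interval -0.39 to 0.36). Rplp0, which anchors the stalk, read 12.68, 12.93 and 11.87 with IFNa and 12.52 and 12.44 with vehicle. IFNa replicate 3 was the lowest array and IFNa replicate 2 the highest, so the spread lay inside the IFNa group. The difference was 0.01 ± 0.34 (SE), with a wide interval of -0.80 to 0.83.

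Rpl11, which together with Rpl5 and 5S rRNA can bind and inhibit the p53 regulator Mdm2, read 13.15, 13.25 and 12.68 with IFNa and 13.16 and 13.06 with vehicle. The difference was -0.08 ± 0.22 (SE), and again IFNa replicate 3 was lowest. The row that names Rpl5 also names another gene and read 9.12, 10.36 and 7.65 with IFNa and 8.48 and 10.24 with vehicle, a difference of -0.32 ± 0.91 (SE) when all rows were fitted. Arrays of both groups were high and low for it.

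A list of genes mutated in Diamond-Blackfan anemia, not a full one, had 9 members. They were Rps19, Rps10, Rps24, Rps26, Rps27, Rps28, Rps29, Rpl11 and Rpl35. Of these 0 passed the threshold, against 0.135% of all genes, and 1 (Rpl35) had a nominal p below 0.05, against 10.0% of all genes. The median difference was -0.08. Rps19, the gene most often mutated in that disease, read 11.41, 11.61 and 10.98 with IFNa and 11.70 and 11.42 with vehicle. Its groups overlapped, at 11.34 ± 0.33 (SD, n = 3) and 11.56 ± 0.19 (SD, n = 2), a difference of -0.23 ± 0.32 (SE). Rps29, a zinc-binding protein of the small subunit, was among the steadiest rows, at 13.60, 13.61 and 13.64 against 13.64 and 13.54.

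The exit tunnel, through which the nascent chain leaves the large subunit, is lined in part by Rpl4. Rpl4 read 13.41, 13.29 and 13.33 with IFNa and 13.25 on both vehicle arrays. All 3 IFNa arrays were higher, but by only 0.09 ± 0.15 (SE, adjusted p = 0.923, limma). Rpl27 was likewise higher on every IFNa array, at 12.50, 12.42 and 12.37 against 12.30 and 12.35, a difference of 0.11 ± 0.21 (SE, adjusted p = 0.939, limma). Both differences turned below 0 with repeated quantile normalization, at -0.11 and -0.10. Rps3a1 was the only bright row lower on every IFNa array, at 13.19, 13.16 and 12.89 against 13.23 and 13.27. Its difference was -0.17 ± 0.18 (SE, adjusted p = 0.849, limma). Rpl38, known for its part in the translation of Hox mRNAs, read 13.86, 13.80 and 13.74 with IFNa and 13.84 and 13.79 with vehicle, and Rpl27a read 14.53, 14.63 and 14.24 against 14.58 and 14.39. For both rows the groups overlapped and the difference was within 0.02 of 0.

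Rpl13a has been described as part of an interferon-gamma-dependent translation brake in human myeloid cells. It had the largest difference of the bright rows, 0.52 ± 0.33 (SE, adjusted p = 0.695, limma). Its arrays read 11.90, 11.76 and 11.52 with IFNa and 11.56 and 10.84 with vehicle, so the groups overlapped and vehicle replicate 3 stood lowest. It came to 0.88 when vehicle replicate 2 was left out and to 0.16 when vehicle replicate 3 was.

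Among the rows below 11, Rpl39l was the only member with a nominal p below 0.05 that was higher with IFNa. It encodes a paralog of the tunnel protein Rpl39 that is best known from the testis. It read 7.84, 9.37 and 9.07 with IFNa and 6.33 and 5.88 with vehicle, and every IFNa array exceeded both vehicle arrays. The means were 8.76 ± 0.81 (SD, n = 3) and 6.10 ± 0.32 (SD, n = 2), a 6.30-fold difference of 2.66 ± 0.62 (SE) on the log2 scale with an interval of 1.17 to 4.14. With adjustment over all genes it was not called (adjusted p = 0.255, limma). The difference lay between 2.35 and 3.11 over the 13 alternatives. Those that change only the variance, the genes tested, the floor or the choice of rows left it at 2.66. In the alternatives that keep both vehicle arrays the adjusted p lay between 0.206 and 0.438 (limma). The parent gene Rpl39, on a shared row, read 13.42, 13.48 and 13.22 with IFNa and 13.43 and 13.34 with vehicle. Its groups overlapped, with a difference of -0.01 ± 0.16 (SE), and the difference between both genes was not tested.

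The remaining paralogs went both ways. Rpl3l, which replaces Rpl3 in heart and skeletal muscle, read 3.35, 3.95 and 3.66 with IFNa and 4.26 and 4.71 with vehicle, lower on every IFNa array by 0.83 ± 0.32 (SE, adjusted p = 0.448, limma). Its whole row lay in the lower part of the scale. Rps4l, which the RefSeq table lists as a transcribed pseudogene, read 7.76, 8.23 and 8.32 against 7.35 and 7.55, higher on every IFNa array by 0.66 ± 0.49 (SE, adjusted p = 0.746, limma). Rps4x, the X-linked gene it resembles, read 6.67, 6.98 and 6.87 against 7.03 and 7.35, lower on every IFNa array by 0.35 ± 0.46 (SE, adjusted p = 0.888, limma). The rows of such similar genes may share signal.

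Rps27l, a p53 target gene, read 9.48, 9.52 and 10.45 with IFNa and 9.51 and 8.68 with vehicle, and its paralog Rps27 read 5.08, 4.33 and 4.11 against 4.17 and 4.28. Both overlapped between groups, with differences of 0.72 ± 0.53 (SE) and 0.28 ± 0.38 (SE). Rpl22l1 read 11.30, 11.60 and 10.41 against 11.48 and 10.97, a difference of -0.12 ± 0.44 (SE), and it was the most variable of the bright rows. Its paralog Rpl22, whose loss impairs T cell development in mice, read 6.17, 5.94 and 4.68 against 6.88 and 7.29. Every IFNa array was lower for Rpl22, by 1.49 ± 0.58 (SE, adjusted p = 0.457, limma).

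The other members with a nominal p below 0.05 were lower with IFNa, and in each the groups did not overlap. Rpl41, one of the smallest known proteins, read 3.75, 4.06 and 2.59 with IFNa and 5.60 and 5.25 with vehicle, a difference of -1.96 ± 0.48 (SE, adjusted p = 0.271, limma). Rps20, of the small subunit head, read 5.30, 4.50 and 2.97 against 6.21 and 6.997, a difference of -2.35 ± 0.71 (SE, adjusted p = 0.358, limma). In both, IFNa replicate 3 was the lowest array.

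Rpl14, of the large subunit, had the largest difference of the members, -2.76 ± 1.05 (SE, adjusted p = 0.448, limma). It read 6.40, 9.42 and 6.06 with IFNa and 9.60 and 10.51 with vehicle. IFNa replicate 2 lay close to vehicle replicate 2, and the other IFNa arrays lay more than 3 below both.

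Rpl35 and Rps18 each rested on 1 vehicle array. Rpl35, a large subunit protein near the tunnel exit, read 1.40, 1.59 and 1.68 with IFNa and 5.76 and 2.05 with vehicle. Its difference of -2.35 ± 0.95 (SE, adjusted p = 0.482, limma) came to -0.49 when vehicle replicate 2 was left out and to -4.20 when vehicle replicate 3 was, where it passed (adjusted p = 0.00656, limma). Rps18, a small subunit protein of the head, read 2.45, 2.45 and 2.87 with IFNa and 3.06 and 5.65 with vehicle. Its difference of -1.76 ± 0.69 (SE, adjusted p = 0.465, limma) came to -0.47 when vehicle replicate 3 was left out and to -3.06 when vehicle replicate 2 was, where it passed (adjusted p = 0.0236, limma). A lone vehicle array is there assumed to vary like the IFNa arrays. With values floored at 3.35 the differences shrank to -1.21 for Rpl35 and -1.15 for Rps18.

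The groups overlapped for 5 of the remaining named dim rows and not for Rpl37a. Rps3, which lines the mRNA entry channel, read 9.66, 9.52 and 11.04 with IFNa and 8.02 and 9.56 with vehicle, a difference of 1.28 ± 0.70 (SE) that was 0.52 without vehicle replicate 2. Rps9 was among the most variable rows, at 5.34, 7.12 and 7.80 against 6.45 and 3.76, and its difference of 1.64 ± 1.00 (SE) was 0.30 without vehicle replicate 3. Rps6, the substrate of the ribosomal S6 kinases, read 5.01, 3.48 and 3.66 against 3.88 and 3.98, and Rpsa, also known as the laminin receptor, 7.11, 6.45 and 6.05 against 7.50 and 6.36. Rps16, a dim row of the small subunit, read 3.15, 2.84 and 2.57 against 2.58 and 3.51. Rpl37a read 5.27, 5.34 and 5.22 against 5.47 and 5.46, so all IFNa arrays lay below both vehicle arrays. Its difference was -0.19 ± 0.34 (SE).

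The scale of the arrays differed between the groups at its upper end. The 90th percentile of all genes was 9.90, 9.88 and 9.78 on the IFNa arrays and 9.66 and 9.48 on the vehicle arrays, without overlap. The 20th percentile was 3.19, 3.26 and 3.41 against 3.36 and 3.53, and there the groups overlapped. With all arrays brought to the same distribution by quantile normalization, the 7 lower members kept their sign. Differences were -3.00 for Rpl14, -2.41 for Rps20, -2.18 for Rpl35, -1.85 for Rpl41, -1.64 for Rps18, -1.60 for Rpl22 and -0.70 for Rpl3l. In that setting 6 of the 44 members stood at a nominal p below 0.05, against 9.75% of all genes. Rpl35 and Rps18 were not among these 6. Vehicle replicate 3 was the highest array for 8 of the 21 dim members and for 29.4% of all genes that average below 11. Markers of other cell types also varied. The mean of 11 endothelial markers was 5.48, 4.45 and 4.71 with IFNa and 6.36 and 5.12 with vehicle, and that of 13 macrophage markers 11.53, 11.47 and 11.06 against 11.62 and 11.56. Their part in the differences was not tested.

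The spread between arrays was, in the median, smaller in the bright rows than in the dim rows. The pooled within-group SD had a median of 0.32 over the 44 members and 0.42 over all genes. It was 0.18 for the 23 bright members, against 0.34 for the 691 genes that average above 11, and 0.67 for the 21 dim members, against 0.45 for the 14643 genes in their signal range. The SD was under 0.1 for 6 bright members, among them Rps29, Rpl38 and Rpl4, and over 0.5 for 15 of the 21 dim members. Rpl37a, with an SD of 0.05 at a mean of 5.35, was an exception among the dim rows. The largest SDs were those of Rpl14 (1.55), Rpl35 (1.52), Rps9 (1.51) and Rps18 (1.07). The range over the 5 arrays had a median of 0.39 in the bright rows and 1.89 in the dim rows.

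**Figure D3:**
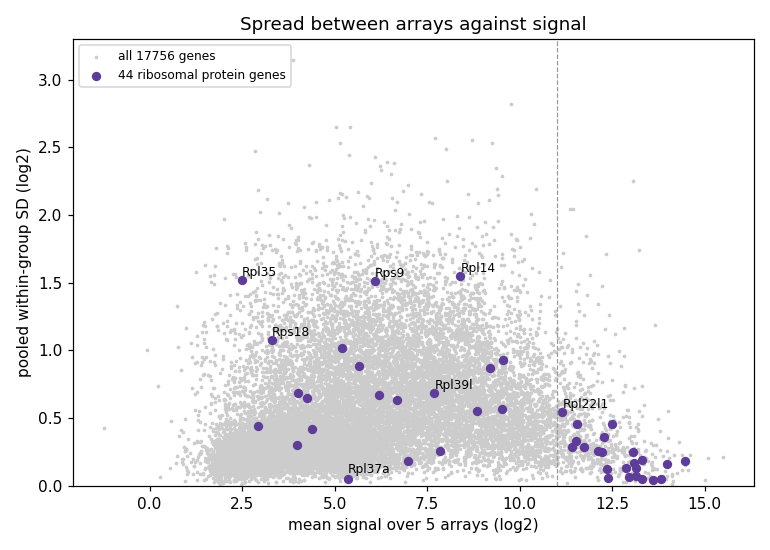
Pooled within-group SD (vertical axis, log2) against mean signal over 5 arrays (horizontal axis, log2) for all 17756 genes in grey and the 44 members in purple. The members right of the dashed line at 11 have a median SD of 0.18 and those left of it a median of 0.67.

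IFNa replicate 3 stood below the other arrays in the bright ribosomal protein rows and, in the median, also in the dim ones. It was the lowest array for 16 of the 23 bright rows, vehicle replicate 3 for 6 and vehicle replicate 2 for 1. Of all genes that average above 11, IFNa replicate 3 was lowest for 27.1% and vehicle replicate 3 for 36.3%. The median deviation of the 23 rows from their own means was 0.10, 0.16 and -0.23 on IFNa replicates 1, 2 and 3 and 0.04 and -0.05 on vehicle replicates 2 and 3. For all genes above 11 it was 0.11, 0.11, -0.01, 0.01 and -0.08 in the same order. The dim members also had their lowest median deviation on IFNa replicate 3, at -0.32. That array was the lowest for 9 of the 21 dim rows. Over all genes at any signal, the median deviation on IFNa replicate 3 was 0.04. Rps10, a small subunit protein, read 10.83 on IFNa replicate 3 and 11.63 to 11.83 on the others, and Rps14, the gene lost in the 5q- syndrome of the bone marrow, read 11.76 against 12.25 to 12.58.

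The same array was low in ribosomal protein rows outside the rule. It was the lowest for 16 of the 18 shared rows that average above 11. Fau, which encodes a small subunit protein fused to a ubiquitin-like domain, read 12.41, 12.39 and 12.02 with IFNa and 12.48 and 12.37 with vehicle. Without IFNa replicate 3 the median difference of the bright members was 0.10, against -0.01 with it, and that of all genes -0.09. Of the lists described further below, the macrophage markers had their lowest mean on this array as well. So did ribosome assembly and rRNA synthesis (7.93), other genes with a TOP tract (8.93) and interferon-linked translation brakes (7.30). The same held for elongation and termination factors (8.97) and for p53 and ribosome stress (8.23). The mitochondrial ribosomal proteins had their lowest mean on vehicle replicate 3, but their lowest median deviation on IFNa replicate 3 (-0.20). The mesenchymal markers had their highest mean on IFNa replicate 3 (6.01). The part of this array in the result was not tested. The ribosomal protein rows share libraries, so they are not independent readings.

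**Figure D4:**
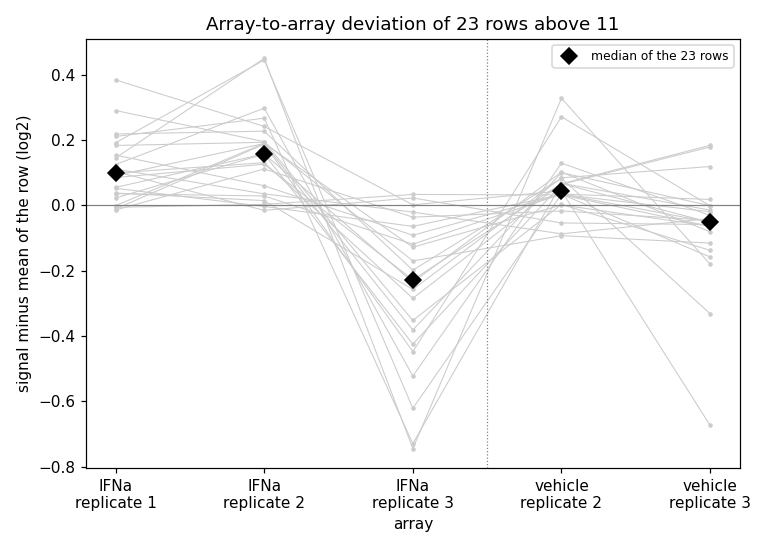
Signal minus the mean of the row (vertical axis, log2) for the 23 members that average above 11, on each of the 5 arrays (horizontal axis). Grey lines join the arrays of 1 gene for reading only, black diamonds are the medians, and IFNa replicate 3 has the lowest median at -0.23.

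The shared rows extended the comparison to ribosomal proteins that have no row of their own. With all 20881 rows fitted separately, 0 of the 30 shared rows passed an adjusted p under 0.05 in limma and 2 (6.67%, against 9.71% of all rows) had a nominal p below 0.05, the row of Rpl30 (-2.16 ± 0.75, SE) and that of Rps15a (1.64 ± 0.62, SE). The median difference was -0.08. The 18 of them above 11 ranged from -0.41 to 0.08. Rplp1, the partner of Rplp2 in the stalk, differed by 0.04 ± 0.27 (SE), Rpl10, an X-linked protein of the subunit interface, by -0.04 ± 0.39 (SE), and Rpl3, of the peptidyl transferase region, by 0.06 ± 0.18 (SE).

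Other genes of translation were read from lists chosen with earlier results of these data known. None of these lists had a gene past the limma threshold, that is, 0 of those measured in each, against 0.135% of all genes. For the nominal counts of each list, the share of all genes below 0.05 was 10.0%. Of 29 initiation factors, 3 reached a nominal p below 0.05, and the list's median difference was 0.07. Eif3m, a subunit of the scaffold that joins mRNA to the small subunit, had the smallest p, with a difference of 1.56 ± 0.45 (SE, adjusted p = 0.340, limma). Its mean was 10.97 ± 0.03 (SD, n = 3) on the IFNa arrays, against 9.41 ± 0.79 (SD, n = 2). Of 8 elongation and termination factors, 1 reached it, Eef1d (-2.73 ± 1.14, SE). The elongation factor Eef1a1 read 13.66, 13.61 and 13.65 against 13.52 and 13.58.

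Of 17 other genes with a TOP tract, 2 reached a nominal p below 0.05, and their list's median was 0.04. Pabpc1, which binds poly(A) tails, had the smallest p, at 4.06, 5.41 and 4.33 with IFNa and 6.05 and 7.16 with vehicle. Its difference was -2.01 ± 0.57 (SE, adjusted p = 0.334, limma). Of 16 mTORC1 and TOP mRNA regulators (median 0.20), the 1 at a nominal p below 0.05 was Tsc2, an inhibitor of mTORC1, with a difference of -2.88 ± 0.56 (SE, adjusted p = 0.185, limma). The TOP-binding protein gene Larp1 differed by 0.20 ± 0.34 (SE) and Myc, a driver of ribosome production, by 0.63 ± 0.44 (SE).

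Of 37 genes of ribosome assembly and rRNA synthesis, 6 reached a nominal p below 0.05 (2 higher, 4 lower), and the median was 0.02. Ltv1, an assembly factor of the small subunit, had the smallest p, with 10.79, 10.37 and 9.87 with IFNa and 8.56 and 8.14 with vehicle and a difference of 1.99 ± 0.47 (SE, adjusted p = 0.260, limma). The nucleolar protein gene Ncl differed by -0.03 ± 0.16 (SE) and Npm1 by 0.21 ± 0.24 (SE). Of 75 mitochondrial ribosomal proteins, which form a separate ribosome, 9 reached it (6 higher, 3 lower), and the median was 0.04. Mrpl11 was the member with the smallest p, at 13.07, 12.75 and 12.94 against 11.20 and 11.69, a difference of 1.47 ± 0.25 (SE, adjusted p = 0.141, limma).

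Of 11 interferon-linked translation brakes, 1 reached a nominal p below 0.05, and the median was -0.01. Eif2ak2, the double-stranded RNA kinase that phosphorylates eIF2, differed by 0.05 ± 0.37 (SE), and the heme-regulated kinase gene Eif2ak1 by -1.38 ± 0.57 (SE, adjusted p = 0.492, limma). Of 8 genes of p53 and ribosome stress (median -0.08), the 1 at a nominal p below 0.05 was Mdm4, an inhibitor of p53, at -1.09 ± 0.42 (SE, adjusted p = 0.448, limma). Mdm2 differed by 0.06 ± 0.48 (SE). Rpl7a, Rps3a1, Rps10, Rps14, Rpl30, Rps15a, Eef1a1, Larp1, Myc, Ncl, Npm1, Eif2ak2, Mdm2, Ptprc, Csf1r and Kit were named after their values were seen.

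The marker lists of other cell types also had 0 genes past the limma threshold. Of all genes, 10.0% had a nominal p below 0.05. A nominal p below 0.05 was reached by 3 of 11 endothelial (median -0.95), 1 of 13 macrophage (-0.07), 1 of 9 erythroid (-0.35), 1 of 6 granulocyte and monocyte (0.25), 2 of 9 mesenchymal (0.57) and 2 of 14 stem cell and sort markers (-0.03). The member with the smallest p was Flt1 (-2.59 ± 0.69, SE) of the endothelial list, Timd4 (-2.54 ± 0.91, SE) of the macrophage list, Tfrc (2.89 ± 0.38, SE) of the erythroid list, Prtn3 (1.15 ± 0.47, SE) of the granulocyte and monocyte list, Tagln (-1.73 ± 0.50, SE) of the mesenchymal list and Cd34 (-2.61 ± 0.63, SE) of the stem cell and sort list.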

How the data were processed

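Labelled RNA of 5 samples was hybridised to Affymetrix mouse arrays. The deposited values are log2 probe set signals. RMA is the tool that the submitters' processing notes name, after NuGen amplification and biotin labelling, per the labels' protocols. Its software and settings were not given in the sources at hand. Values run from -1.95 to 15.64, and array medians from 4.98 to 5.15. What put values below 0 is not stated, so the size of differences between dim rows is uncertain. The number of arrays limits the precision.

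Of 20881 rows, 17838 have 1 gene symbol in the platform annotation, 244 several and 2799 none. For 81 symbols with several rows the row with the highest mean was used, which leaves 17756 genes. Groups follow the sample titles. limma 3.58.1 in R 4.3.3 (lmFit, eBayes with a mean-variance trend) compared IFNa with vehicle over all genes, two-sided, with Benjamini-Hochberg adjustment and a threshold of 0.05. Intervals are 95% and use the moderated SE. The fit was tested on simulated data.

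Both groups have a replicate 2 and a replicate 3, but no label ties them to a shared litter or day. The members and lists were chosen with earlier results of these data known, and the motifs and the split at 11 after the values and sequences were seen. Members were named from a fixed set of 22 symbols (16 measured as members), up to 8 per direction with the largest difference and no overlap, the 3 with the smallest p, and the 4 with the highest and lowest SD and signal. From each other list the gene with the smallest p was named. Start windows come from RefSeq (GRCm38.p6). Alternatives are given in the closing section.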

Additional observations from a re-analysis of the deposited data

How the results depend on the processing

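The count of members called by limma was 0 with all arrays and in each alternative except without vehicle replicate 2 (Rps18) and without vehicle replicate 3 (Rpl35), so it ranged from 0 to 1 over the arrays left out. With the shared rows included it was 0. The genes of the related lists called ranged from 0 to 3 over the arrays left out. Over all genes limma called 24 (3 higher, 21 lower). Testing only genes above the median signal left 1 (1 and 0). Values floored at the table's 20th percentile left 0 (0 and 0, with 9.35% of genes at an unadjusted p under 0.05), and variance without a trend left 3 (1 and 2). Leaving out each array gave 0 to 181 genes, 0 to 37 higher and 0 to 144 lower, with 181 without vehicle replicate 2, 150 without vehicle replicate 3, 9 without IFNa replicate 2, 1 without IFNa replicate 1 and 0 without IFNa replicate 3. The cause was not tested, beyond the fewer genes in the first setting.

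With the replicate number as a fixed replicate block 0 genes were called (0 higher and 0 lower, 8.12% at an unadjusted p under 0.05), and the median of the small subunit was -0.22. Same-numbered arrays deviated together with correlations of 0.0024 and 0.043 only, so they are taken to share a number. In that fit Rplp0 was at -0.080, Rps27 at -0.0059 and Rps6 at -0.37.

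The median difference of the members was -0.18 and that of the large subunit -0.19 with repeated quantile normalization. The small subunit median ranged from -0.22 to 0.11 over the arrays left out. Members below 11 alone had a median difference of -0.19 and a median SD of 0.67. Quantile normalization turned Rpl27 (-0.10), Rpl4 (-0.11), Rplp0 (-0.24) and Rps29 (-0.16), and median centring turned Rpl27a (0.065), Rpl38 (0.071) and Rplp2 (0.070). Leaving out arrays gave ranges through 0 for Rplp0 (-0.21 to 0.33), Rps27 (-0.0059 to 0.48), Rps6 (-0.37 to 0.40), Rpl22l1 (-0.38 to 0.22), Rpl27a (-0.11 to 0.10), Rpl38 (-0.041 to 0.018), Rplp2 (-0.079 to 0.10), Rpsa (-0.96 to 0.18), Rpl11 (-0.19 to 0.091), Rps16 (-0.65 to 0.28) and Rps29 (-0.022 to 0.075). Rpl14, Rpl22, Rpl35, Rpl39l, Rpl3l, Rpl41, Rps18 and Rps20 kept their sign in each alternative that tested them. In each of them the IFNa and vehicle arrays did not overlap, so leaving out an array could not turn the sign. Settings that change only the variance or the genes tested left each difference as it was.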
